A study of Mus musculus with 4 samples.

Results

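The 48 genes described here encode the machinery that takes a cell through mitosis: the kinases that start it, the checkpoint that holds it, the kinetochores and condensins that handle chromosomes, the kinesins that move them and the proteins that cut the cell apart. They were chosen by symbol, as rows of the deposited count table whose Ensembl identifier maps to a listed symbol in the GRCm38 annotation, and make up 48 of 25509 gene rows. All 48 were found, and all passed the filter on low counts. RNA was measured in splenocytes, the cells of spleen passed through a filter as a suspension, from wild-type and Trim21-/- mice, with 2 libraries per genotype. Trim21 is an E3 ubiquitin ligase and the cytosolic antibody receptor known as the Ro autoantigen. The mice were 8 weeks old, had their backs shaved and received UVB at 100 mJ/cm2. Exposure lasted 1 or 3 weeks, and the labels do not tie either time to a library. All 4 libraries come from exposed mice, so each value compares genotypes under UVB, and unexposed mice were not analysed here. The Trim21 deletion is given with no tissue-restricted promoter or Cre, and no source used here says which part of the gene it removes.

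Entry into mitosis is driven by the kinase Cdk1 bound to cyclin A or B, and most genes of this machinery are transcribed late in the cell cycle, so that their transcripts mark dividing cells. In an adult mouse spleen the cells that divide include antigen-activated lymphocytes and, in the red pulp, blood cell precursors. The late wave of transcription is known to run through the MuvB complex with B-Myb and FoxM1, which reaches promoters through a short element, the cell cycle genes homology region (CHR), often beside CCAAT boxes bound by NF-Y.

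Because these genes are known as targets of that late wave, the start of some promoters is shown with the letters of both motifs. RefSeq promoter windows (build GRCm38.p6, 250 bases before to 50 bases after a start) were held for 41 of the 48 genes, and 7 had none. The CHR was searched as TTTGAA or TTCGAA and the box as CCAAT, both on either strand, and matches of the 2 motifs may share end bases. Some genes had several windows, and a gene was counted when any of its windows held the letters. CHR letters were found for 32 of 41 genes (78.0%), against 21.7% of 27025 genes in the same table. CCAAT was in 31 of 41 (75.6%), against 41.1% of all genes, and both were in 27 (65.9%), against 9.65%. CHR letters lying from 50 bases before to 20 bases after a start were found for 22 of 41 genes (53.7%), against 4.84%. The 100 bases before the start are printed 5′ to 3′ on the gene's strand, with motif letters in capitals, for 5 genes with both motifs and 2 contrasts. Birc5, which had the highest fold change of the 48, and Cep55, which did not pass the test, are the contrasts. The positions on GRCm38.p6 are Cdk1 at chr10:69352913-69353012 (minus strand), Ube2c at chr2:164769829-164769928 (plus strand), Cdc20 at chr4:118437344-118437443 (minus strand), Kif11 at chr19:37376282-37376381 (plus strand), Top2a at chr11:99024190-99024289 (minus strand), Birc5 at chr11:117849137-117849236 (plus strand) and Cep55, from the later of its start sites in the table, at chr19:38054941-38055040 (plus strand).
Cdk1: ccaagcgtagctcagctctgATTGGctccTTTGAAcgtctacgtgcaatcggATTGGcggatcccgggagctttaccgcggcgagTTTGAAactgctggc
Ube2c: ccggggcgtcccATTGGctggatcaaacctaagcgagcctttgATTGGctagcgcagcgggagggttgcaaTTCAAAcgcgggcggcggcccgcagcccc
Cdc20: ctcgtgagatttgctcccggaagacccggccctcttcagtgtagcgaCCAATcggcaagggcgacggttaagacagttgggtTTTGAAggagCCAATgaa
Kif11: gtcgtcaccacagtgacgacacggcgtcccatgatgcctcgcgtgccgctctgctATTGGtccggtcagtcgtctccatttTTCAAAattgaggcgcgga
Top2a: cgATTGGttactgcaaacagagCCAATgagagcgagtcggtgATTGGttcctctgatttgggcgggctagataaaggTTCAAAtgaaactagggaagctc
Birc5: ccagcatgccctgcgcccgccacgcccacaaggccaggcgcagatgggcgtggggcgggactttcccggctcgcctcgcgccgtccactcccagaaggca
Cep55: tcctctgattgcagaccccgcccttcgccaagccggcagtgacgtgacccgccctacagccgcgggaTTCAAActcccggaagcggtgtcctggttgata
Cdk1, Ube2c, Cdc20, Kif11, Top2a and Cep55 each had CHR letters within the 50 bases before the start, and the first 5 of these also had CCAAT. The Birc5 window held neither set of letters. Among the genes with a window, CHR letters were in 24 of the 31 that rose in knockout (77.4%) and in 8 of the 10 that did not pass (80.0%). CCAAT was in 25 of 31 (80.6%) and 6 of 10 (60.0%). These are matches of letters and were given no test.

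Library totals ran from 36173694 to 41924885 counts. Trim21 itself (chromosome 7, 102557921 to 102565486, minus strand) had 27.9 and 40.9 CPM in wild type and 13.4 and 20.4 CPM in knockout, a log2 difference of -1.02 ± 0.42 (SE) with an adjusted p of 0.17 by edgeR. CPM here is the usual count rate per library, taken on the TMM-scaled library size. Libraries 1 of both genotypes had Y-linked transcripts and almost no Xist, and libraries 2 had Xist and 0 counts of 4 Y-linked genes, so libraries 1 had a male pattern and libraries 2 a female one. The libraries of a genotype therefore came from different mice. Of 13532 genes tested, 798 passed as higher in knockout (5.90%) and 53 as lower (0.392%) by edgeR's quasi-likelihood test at an adjusted p under 0.05. A gene is said below to have risen only when it passed that test, and adjusted p-values are from it unless another is named.

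Transcripts of the mitotic machinery were more abundant in knockout spleens. Of the 48 genes, 37 rose and 0 fell, against a background of 5.90% of all genes passing as higher. The fitted log2 fold change was above 0 for all 48, with a median of 2.75, while the median of all genes tested was -0.056. It ran from 0.081 for Smc4 to 4.16 for Birc5. Both knockout libraries lay above both wild-type libraries for 46 of 48 genes, against 30.3% of all genes tested, and the exceptions were Smc4 and Cep55. Scaling by library totals alone moved the median of all genes to -0.56 and that of the 48 to 2.21, and Smc4 was then below 0 at -0.45. In these bulk libraries a different number of dividing cells and a different amount of RNA per cell cannot be told apart.

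**Figure D1:**
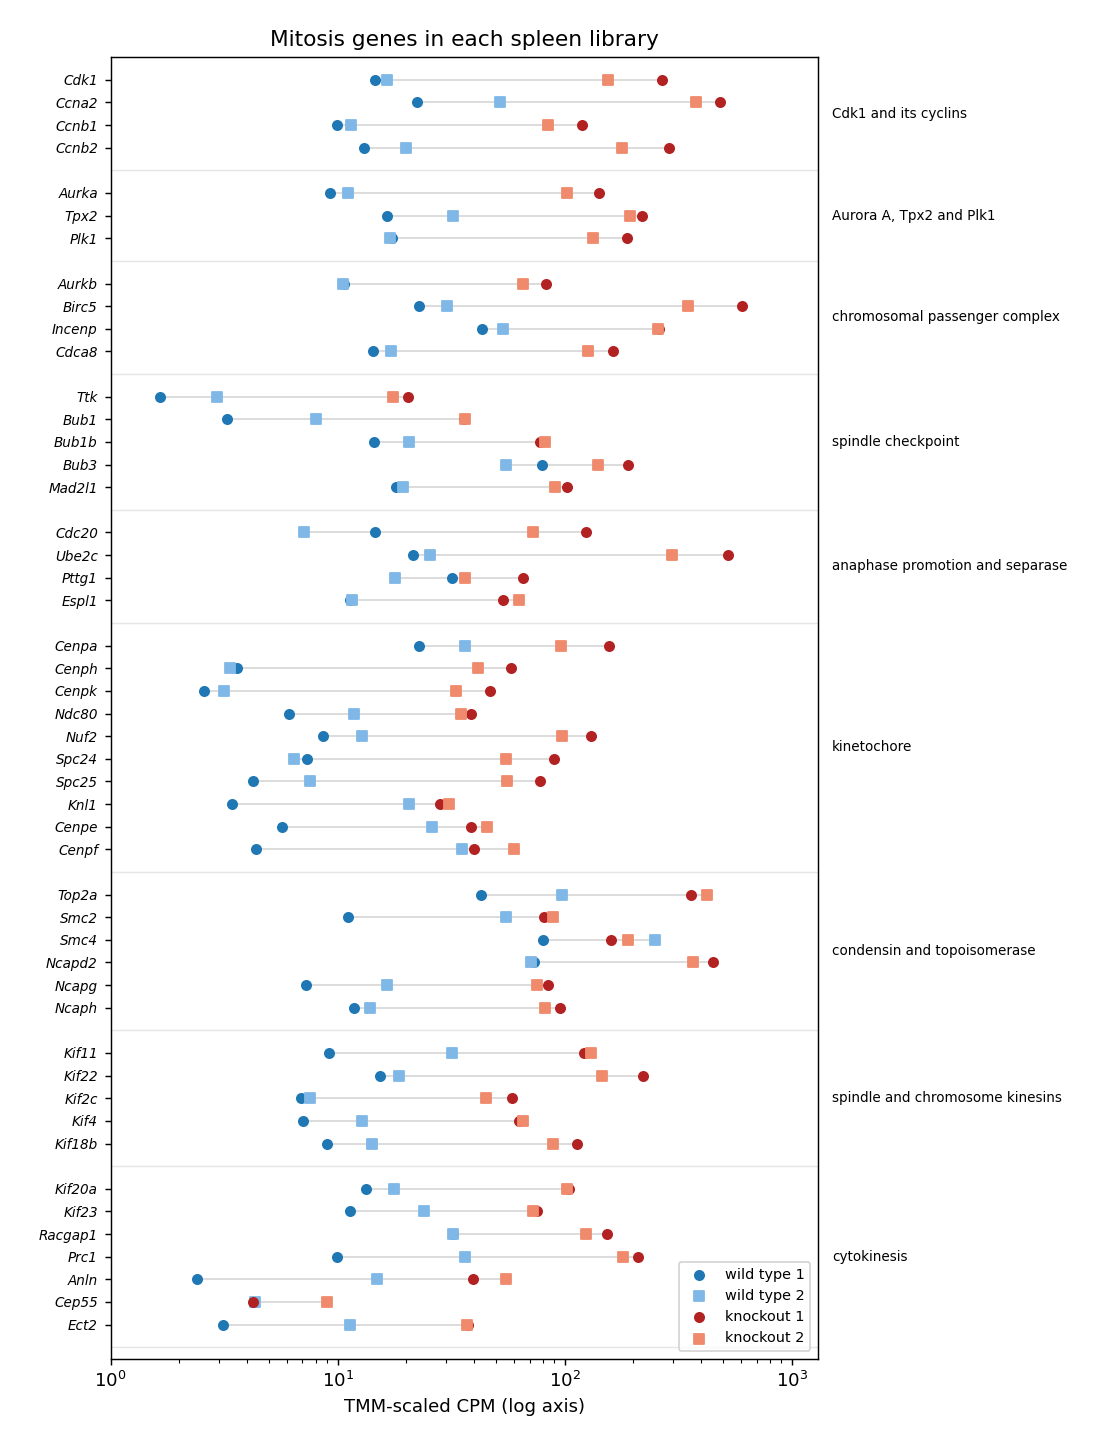
Level of each of the 48 genes in each library, in TMM-scaled CPM on a log axis, grouped by role; blue marks the 2 wild-type libraries and red the 2 knockout libraries, with circles for libraries 1 and squares for libraries 2. The red marks lie to the right of the blue in all genes except Smc4 and Cep55.

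The genes that start mitosis rose in all 4 cases. Cdk1 (ENSMUSG00000019942, chromosome 10, 69335146 to 69352938), the kinase that triggers entry, had 14.7 and 16.6 CPM in wild type and 268 and 156 CPM in knockout. The knockout libraries were both far above the wild type, although they differed from each other more than the wild-type libraries did. Its log2 fold change was 3.76 ± 0.46 (SE, n = 2 per genotype, edgeR adjusted p 0.011). Ccnb1, the main mitotic cyclin, had 9.98 and 11.5 CPM in wild type and 119 and 84.7 CPM in knockout. Ccnb2, another B-type cyclin, had 13.0 and 19.9 CPM in wild type and 288 and 178 CPM in knockout. Neither gene's groups overlapped. Ccna2, the cyclin of S phase and early mitosis, had 22.4 and 51.8 CPM in wild type and 484 and 378 CPM in knockout, so its wild-type libraries were less alike than those of Cdk1. Its log2 fold change of 3.54 ± 0.55 became 4.27 without wild-type library 2.

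The kinases of centrosome and spindle assembly moved with Cdk1. Aurka, the Aurora kinase of centrosomes and spindle poles, had 9.30 and 11.1 CPM in wild type and 141 and 103 CPM in knockout, a log2 fold change of 3.58 ± 0.42. Its activator at the spindle, Tpx2, had 16.5 and 32.1 CPM against 219 and 194 CPM. Plk1, the Polo kinase that acts from entry to cytokinesis, had 17.4 and 17.0 CPM in wild type and 188 and 134 CPM in knockout. Wild-type values of Plk1 were nearly equal, so the knockout libraries gave most of its spread. All 3 genes rose (adjusted p 0.011 for Aurka and Plk1 and 0.015 for Tpx2, edgeR).

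The chromosomal passenger complex, which corrects faulty attachments and later directs cytokinesis, rose in all 4 subunits. Birc5 (ENSMUSG00000017716, chromosome 11, 117849251 to 117855743), which encodes survivin, had 22.9 and 30.2 CPM in wild type and 601 and 349 CPM in knockout. That 17.9-fold difference (log2 4.16 ± 0.51) was the highest of the 48. Aurkb, the complex's kinase, had 10.7 and 10.6 CPM against 82.5 and 65.8 CPM. Cdca8, the borealin subunit, had 14.4 and 17.2 CPM against 163 and 127 CPM. Incenp, the scaffold, changed least of the 4, from 43.1 and 53.4 CPM to 259 and 257 CPM (log2 2.42 ± 0.39, adjusted p 0.016, edgeR). As levels per kilobase of merged exons, Incenp was the highest of the 4 in both wild-type libraries at 9.97 and 12.3 CPM per kilobase, and Birc5 in both knockout libraries at 177 and 102. The same held per kilobase of the longest coding transcript.

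In the spindle checkpoint, which delays anaphase until every kinetochore is attached, 4 of 5 genes rose. Ttk, the kinase that starts the signal, had 1.65 and 2.95 CPM in wild type and 20.3 and 17.5 CPM in knockout, the largest change of the group (log2 3.04 ± 0.47). Bub1, a kinetochore kinase, had 3.25 and 8.03 CPM against 36.1 and 36.4 CPM, and its log2 fold change of 2.68 became 3.48 without wild-type library 2. Mad2l1, the subunit that captures Cdc20, had 18.1 and 19.3 CPM against 103 and 90.3 CPM. The libraries of each genotype were close together for Mad2l1, whereas those of Bub1 in wild type were not. Bub1b, which encodes BubR1, had 14.5 and 20.5 CPM against 78.0 and 81.5 CPM, and did not pass without knockout library 1 (log2 2.22, adjusted p 0.058). Bub3, the WD40 partner of Bub1 and BubR1, had 79.2 and 55.2 CPM in wild type and 190 and 140 CPM in knockout and did not pass (log2 1.29 ± 0.40, adjusted p 0.099). Its groups did not overlap, and without wild-type library 1 its log2 difference was 1.56.

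Among the genes of anaphase onset, Cdc20, Ube2c and Espl1 rose and Pttg1 did not pass. Ube2c, the ubiquitin-conjugating enzyme of the anaphase-promoting complex (APC/C), had 21.5 and 25.4 CPM in wild type and 524 and 298 CPM in knockout, a 17.5-fold difference (log2 4.13 ± 0.49). Cdc20, its activator, had 14.6 and 7.15 CPM against 124 and 72.4 CPM, and in both genotypes library 1 was the higher. Without wild-type library 1 its log2 fold change of 3.17 became 3.76. Espl1, the protease separase, had 11.4 and 11.5 CPM in wild type and 53.7 and 62.6 CPM in knockout. Pttg1, the securin that holds separase inactive, had 31.9 and 17.9 CPM in wild type and 65.3 and 36.6 CPM in knockout. The lower knockout value of Pttg1 was close to the higher wild-type value, and its log2 difference was 1.03 ± 0.47 (adjusted p 0.20, edgeR). Its call depended on which libraries were kept.

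At the kinetochore, 7 of 10 genes rose. Cenpa, the histone variant that marks centromeres, had 22.7 and 36.4 CPM in wild type and 157 and 96.0 CPM in knockout. It did not pass without knockout library 1 (log2 1.70, adjusted p 0.27) or with library totals alone (log2 1.49, adjusted p 0.073). Cenph and Cenpk, inner kinetochore subunits that sit on it, had the largest changes of the group. Cenph had 3.61 and 3.36 CPM against 57.8 and 41.3 CPM (log2 3.83 ± 0.43), and Cenpk had 2.57 and 3.17 CPM against 47.1 and 33.3 CPM (log2 3.81 ± 0.44). All 4 subunits of the Ndc80 complex, the rod that grips microtubules, rose. Nuf2 had 8.65 and 12.9 CPM against 131 and 97.0 CPM, Spc24 had 7.34 and 6.42 CPM against 89.9 and 55.1 CPM, and Spc25 had 4.24 and 7.58 CPM against 77.6 and 55.6 CPM. Ndc80 itself, at 6.12 and 11.8 CPM against 38.7 and 34.8 CPM, changed less than its partners (log2 2.03 ± 0.46 against 3.40 to 3.49). That difference between subunits was not tested. The Ndc80 call was lost without knockout library 1 (log2 1.95, adjusted p 0.15), without knockout library 2 (log2 2.12, adjusted p 0.058), with DESeq2 size factors (log2 2.03, adjusted p 0.051) and with library totals alone (log2 1.48, adjusted p 0.080).

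Knl1, Cenpe and Cenpf, the 3 kinetochore genes that did not pass, shared 1 pattern. Knl1, the scaffold that recruits the checkpoint, had 3.43 CPM in wild-type library 1, 20.5 in wild-type library 2, and 28.1 and 30.9 in knockout. Cenpe, the kinetochore kinesin, had 5.69 and 25.9 CPM in wild type and 38.7 and 45.3 CPM in knockout. Cenpf, a large protein of the outer kinetochore, had 4.38 and 35.4 CPM in wild type and 39.9 and 60.0 CPM in knockout. In each of the 3 the wild-type libraries were more than 4 times apart and the knockout libraries closer together, and no knockout value was below a wild-type one. Their log2 differences were 1.30 ± 0.74, 1.41 ± 0.67 and 1.33 ± 0.83, with edgeR adjusted p of 0.29, 0.21 and 0.33. When wild-type library 2 was left out they became 3.11, 2.88 and 3.51. Without wild-type library 1 they became 0.51, 0.68 and 0.48.

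Condensin I, which compacts chromosomes, had the widest range of fold changes among the complexes here, though differences between subunits were not tested. Its non-SMC subunits all rose. Ncapd2 had 73.1 and 71.2 CPM in wild type and 451 and 368 CPM in knockout, a 5.67-fold difference, Ncapg had 7.22 and 16.5 CPM against 84.8 and 75.7 CPM, and Ncaph had 11.8 and 13.9 CPM against 95.2 and 82.3 CPM. Neither ATPase subunit passed. Smc2 had 11.1 and 55.1 CPM in wild type and 80.9 and 89.1 CPM in knockout, the same shape as Cenpf (log2 1.36 ± 0.68, adjusted p 0.24). Without wild-type library 2 its log2 difference was 2.93. Smc4 (ENSMUSG00000034349, chromosome 3, 69004738 to 69034623) had 80.5 and 250 CPM in wild type and 160 and 189 CPM in knockout. The knockout values of Smc4 lay between the wild-type ones, and its log2 difference of 0.081 ± 0.55 (adjusted p 0.94, edgeR) changed sign without wild-type library 1 (-0.53) or without knockout library 2 (-0.036). Per kilobase of merged exons, Smc4 was the highest of the 5 condensin I genes in both wild-type libraries, at 15.5 and 47.9 CPM per kilobase. Ncapd2 was the highest in both knockout libraries, at 71.9 and 58.8. Smc2 and Smc4 are also subunits of condensin II. Top2a, the topoisomerase that disentangles sister chromatids, had 42.9 and 97.1 CPM against 360 and 424 CPM and rose (log2 2.49 ± 0.52, adjusted p 0.035). Without wild-type library 2, log2 fold changes became 3.19 for Top2a and 3.47 for Ncapg.

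Of the spindle and chromosome kinesins, 4 of 5 rose. Kif22, the chromokinesin Kid, had 15.3 and 18.6 CPM in wild type and 220 and 146 CPM in knockout (log2 3.43 ± 0.43). Kif18b, which acts on the plus ends of astral microtubules, had 8.94 and 14.2 CPM against 113 and 88.4 CPM. Kif2c, the microtubule depolymerase MCAK, had 6.93 and 7.58 CPM against 58.7 and 44.8 CPM. The groups of these 3 were widely separated. Kif4, the chromokinesin of the anaphase midzone, had 7.02 and 12.8 CPM against 63.1 and 65.2 CPM. Kif11, the Eg5 motor that separates the poles, had 9.19 and 32.0 CPM in wild type and 121 and 130 CPM in knockout. Its log2 difference of 2.61 ± 0.61 missed the threshold at an adjusted p of 0.051. When any 1 of the 4 libraries was left out, Kif11 had log2 fold changes of 1.96 to 3.78. The lowest was found when wild-type library 1 was missing and the highest when wild-type library 2 was.

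Of the cytokinesis genes, 4 of 7 rose. Kif20a, the kinesin that carries the passenger complex to the midzone, had 13.3 and 17.7 CPM in wild type and 104 and 103 CPM in knockout (log2 2.74 ± 0.39). Prc1, which bundles midzone microtubules, had 9.91 and 36.5 CPM against 210 and 180 CPM (log2 3.07 ± 0.64). The wild-type libraries of Prc1 were wide apart, and its log2 fold change rested on both, at 4.30 with wild-type library 1 alone and 2.41 with wild-type library 2 alone. Both subunits of centralspindlin rose: Kif23 went from 11.4 and 24.0 CPM to 75.5 and 72.7 CPM, and Racgap1 from 32.4 and 32.3 CPM to 154 and 124 CPM. The Kif23 call, at an adjusted p of 0.045, was lost without knockout library 1 (log2 2.04, adjusted p 0.10) and also without library 2 (log2 2.10, adjusted p 0.055), with DESeq2 size factors (0.054) and with library totals alone (log2 1.52, adjusted p 0.071). Its log2 fold change was 2.71 without wild-type library 2. Racgap1 was lost without knockout library 1 (log2 1.94, adjusted p 0.14) and with library totals alone (log2 1.57, adjusted p 0.058).

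The cytokinesis genes that did not pass were Ect2, Anln and Cep55. Ect2, which centralspindlin recruits to the midzone, had 3.14 and 11.4 CPM in wild type and 37.7 and 37.1 CPM in knockout (log2 2.36 ± 0.62, adjusted p 0.068). Anln, the contractile ring scaffold anillin, had 2.42 and 15.0 CPM against 39.6 and 55.3 CPM (log2 2.45 ± 0.78, adjusted p 0.10). In both, each knockout value was above both wild-type values. Set against wild-type library 2 alone, their log2 fold changes were 1.70 for Ect2 and 1.65 for Anln, and set against wild-type library 1 alone 3.57 and 4.30. With knockout library 2 alone they were 2.35 and 2.66, and with knockout library 1 alone 2.39 and 2.20. Cep55 (ENSMUSG00000024989, chromosome 19, 38055011 to 38074423), which recruits the abscission machinery to the midbody, differed from the rest. It had 4.27 and 4.32 CPM in wild type and 4.24 and 8.94 CPM in knockout, so knockout library 1 was level with the wild type (log2 0.62 ± 0.50, adjusted p 0.44). Without knockout library 2 the Cep55 difference was -0.0089.

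**Figure D2:**
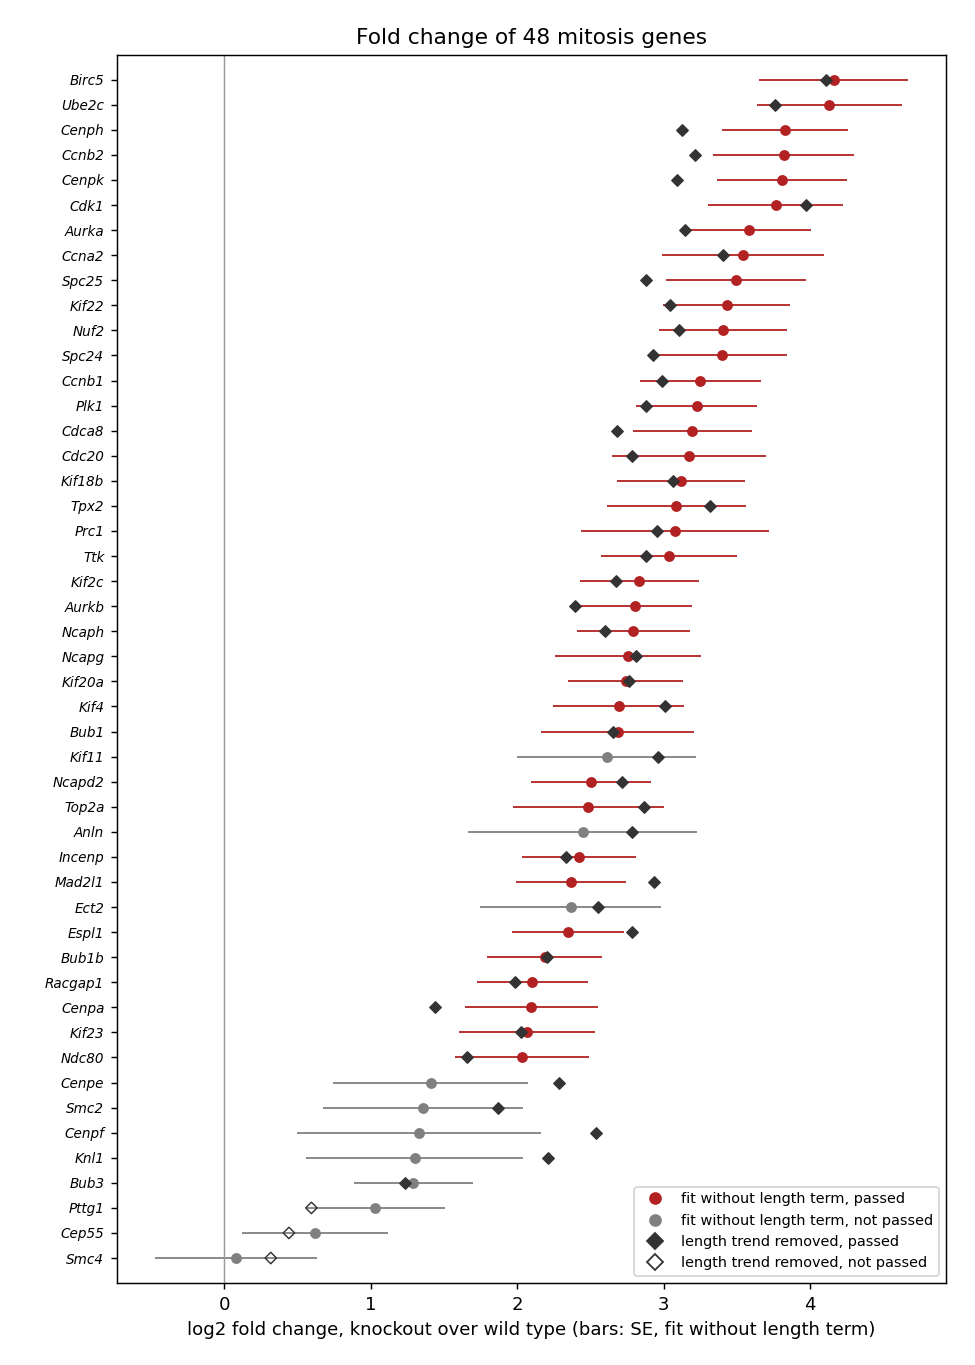
Log2 fold change of each of the 48 genes, knockout over wild type, in order of size; circles with bars give the fit and its SE (red, passed; grey, did not pass), and diamonds the fit after each library's trend with transcript length was taken out. All circles lie above 0, from 0.081 for Smc4 to 4.16 for Birc5, and 45 of 48 diamonds are filled, meaning that the gene passed.

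The 11 genes that did not pass were not spread evenly over transcript length. In order of their longest coding transcript, 15 of the shortest 16 genes (1251 to 2405 bases) rose, 14 of the middle 16 (2489 to 3674 bases) and 8 of the longest 16 (3703 to 11130 bases). This split was made after the values were seen. Within wild type, library 2 was above library 1 by a median of 2.70-fold in the longest 16 and 1.195-fold in the shortest 16. Within knockout the ratio of library 2 to library 1 was 1.09 in the longest 16 and 0.709 in the shortest 16. Long transcripts were thus relatively higher in library 2 of both genotypes, and this was a trend of the whole table. Across 13499 genes with a known transcript length, the log2 difference between the wild-type libraries had a Spearman correlation of 0.57 with length, and that between the knockout libraries 0.53. For a gene with no coding transcript the longest of any type was taken. Across the 48 genes the values were 0.49 and 0.73. The log2 difference between genotypes also went with length, in the other direction, at -0.39 over all genes and -0.48 over the 48. Short transcripts were thus relatively higher in knockout. The median log2 fold change was 3.40 in the shortest 16 genes and 2.41 in the longest 16. With the GC content of the transcript, the correlation over all genes was -0.55 in wild type and -0.28 in knockout. All points of each correlation share the same libraries, and length and GC content go together, so these values are descriptions.

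With the length trend taken out of each library, an alternative chosen after seeing the data, 45 of the 48 genes passed as higher, against 10.3% of all genes in that fit, and 0 as lower, against 6.41%. Cenpf then had a log2 fold change of 2.54 (edgeR adjusted p 0.015), Cenpe 2.28 (0.011), Knl1 2.21 (0.022), Smc2 1.87 (0.038), Kif11 2.96 (0.0047), Anln 2.78 (0.020), Ect2 2.55 (0.012) and Bub3 1.23 (0.047). The 3 that still did not pass were Pttg1, at 0.60 (adjusted p 0.23), Cep55, at 0.44 (0.51), and Smc4, at 0.32 (0.62). In the longest 16 genes 15 then passed. The median log2 fold change was then 2.91 in the shortest 16 genes and 2.78 in the longest 16. For 5 of the 37 genes that rose the fold was lower by more than 1.5 times in this fit, most of all for Cenpk, at a log2 value of 3.09. With GC content taken out as well, 44 of 48 passed, and Bub3 was again among those that did not. The direction of Smc4 and Cep55 thus rested on single libraries, while that of the other genes named here did not. What in the libraries moves with transcript length was not tested. Libraries 1 and 2 also differ in the male or female pattern in both genotypes, so the length trend between libraries 1 and 2 and that pattern cannot be told apart. Both genotypes had both patterns, and what moved with length between genotypes was not tested.

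**Figure D3:**
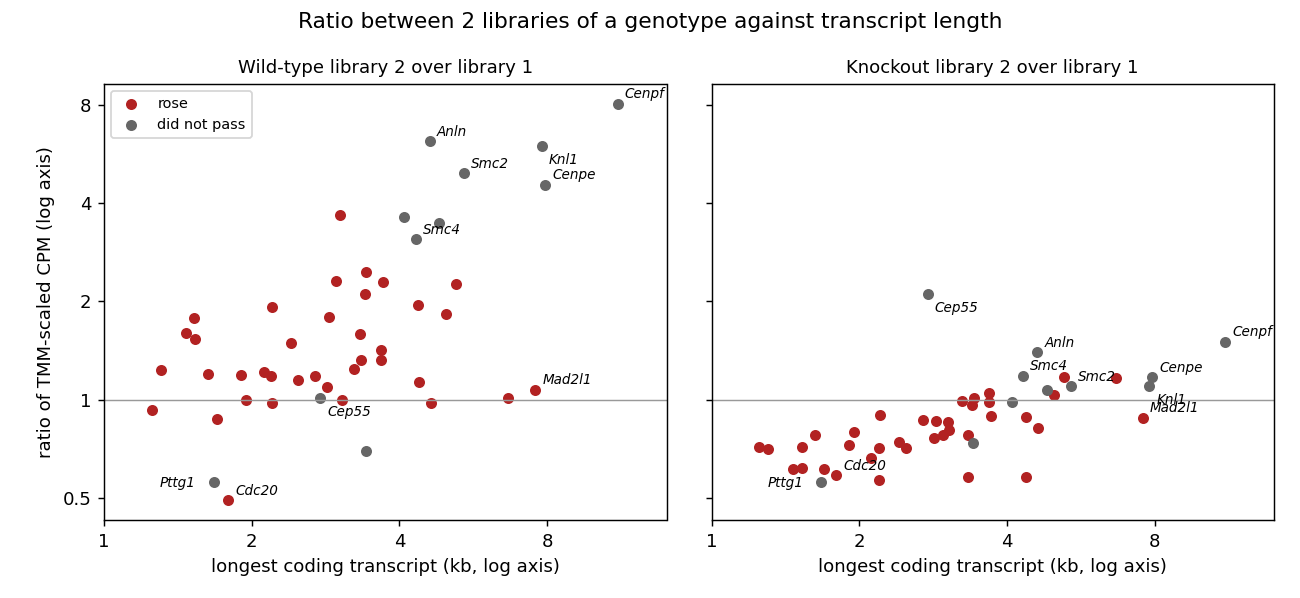
Ratio of library 2 to library 1 within wild type (left) and within knockout (right) against the longest coding transcript, both on log axes, for each of the 48 genes (red, rose; grey, did not pass). Ratios tend to be higher for longer genes, up to 8.08 for Cenpf in wild type, but Mad2l1 is long and near 1 in both panels, and Cep55, of middle length, has the highest knockout ratio, 2.11.

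Within each library number, and so within the male and the female pattern, the knockout was also above the wild type for most genes. The median log2 difference of the 48 genes was 3.31 between libraries 1 and 2.41 between libraries 2, and these values have no test. Between libraries 1, Birc5 was higher by 4.71, Ube2c by 4.61 and Prc1 by 4.41. Between libraries 2, the same genes were higher by 3.53, 3.55 and 2.30. Exceptions to the direction were Cep55 between libraries 1 (-0.0079) and Smc4 between libraries 2 (-0.40). Bub3 and Pttg1 had nearly the same difference in both, at 1.26 and 1.34 for Bub3 and 1.03 and 1.03 for Pttg1.

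**Figure D4:**
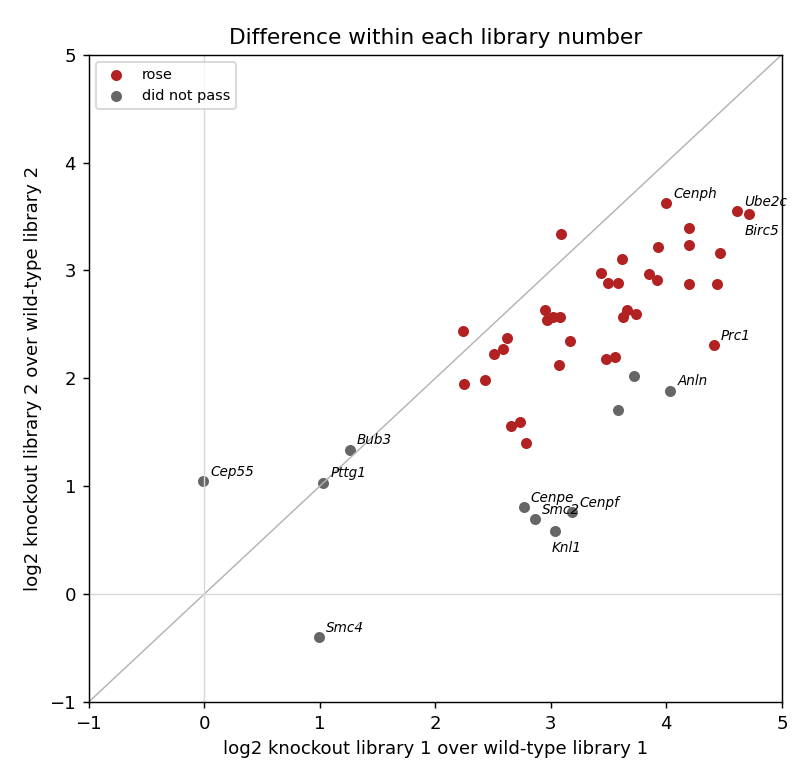
Log2 difference of each of the 48 genes between knockout and wild-type libraries 2 (vertical) against that between libraries 1 (horizontal); red genes rose, grey genes did not pass, and the diagonal marks equal differences. Most genes lie below the diagonal, Cep55 lies at -0.0079 on the horizontal axis and Smc4 at -0.40 on the vertical axis.

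Another 122 genes of mitosis were taken from lists by role. Of these, 40 rose and 0 fell, against the same background of 5.90%, with a median log2 fold change of 1.39. The 71 with an unadjusted p under 0.05 were more than those that passed, and 3752 of all 13532 genes tested had such a p. The count of 40 moved when 1 library was left out, and so did the count over all genes. In the switch that activates Cdk1, 4 of 12 rose: Ccnf, Cdc25c, Cks1b and Cks2. Cdc25c, the phosphatase that removes the inhibitory marks from Cdk1, had 1.90 and 1.82 CPM in wild type and 19.0 and 14.8 CPM in knockout. Cks2, a Cdk1-binding subunit, had 15.5 and 13.7 CPM against 182 and 108 CPM.

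Among other mitotic kinases and proliferation markers, 4 of 6 rose, namely Nek2, Haspin, Melk and Pbk. Mki67, the gene of the Ki-67 antigen that coats mitotic chromosomes, had 68.6 and 445 CPM in wild type and 873 and 942 CPM in knockout and did not pass (log2 1.82 ± 0.82, adjusted p 0.20, edgeR). Mki67 therefore had the shape of Cenpf and Smc2, with wild-type libraries wide apart. Of the checkpoint and cohesion guard genes, 4 of 9 rose: Zwilch, Spdl1, Trip13 and Sgo1, the shugoshin that protects centromeric cohesion (3.52 and 7.88 CPM against 53.8 and 42.4 CPM). At the kinetochore 11 of 21 further genes rose, led by Ska1 of the microtubule-tracking Ska complex, at 2.84 and 3.85 CPM in wild type and 78.8 and 43.2 CPM in knockout (log2 4.19 ± 0.50). Cenpp, an inner kinetochore subunit, followed with 1.65 and 1.99 CPM against 27.1 and 15.95 CPM. Of 4 genes for loading Cenpa, Oip5 rose (log2 3.53 ± 0.62). Other spindle genes rose in 8 of 16, with Tacc3 at 20.7 and 19.5 CPM against 214 and 156 CPM and Kifc1 at 12.4 and 13.8 CPM against 122 and 98.6 CPM.

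In the APC/C and cohesin lists the counts that passed are to be read against 5.90% of all genes passing as higher, so a count of 0 among so few genes is near that background. Counts at an unadjusted p under 0.05 are to be read against 3752 of 13532 genes tested, both directions together. None of 14 core APC/C subunits passed by edgeR (2 had an unadjusted p under 0.05), and their median log2 difference was 0.50. The 3 genes of that list that rose regulate the complex: Fzr1, the activator Cdh1, had 72.6 and 58.7 CPM against 513 and 261 CPM, the inhibitor Fbxo5 had 8.96 and 21.5 CPM against 99.9 and 91.3 CPM, and Ube2s, the chain-extending enzyme, had 100.03 and 52.4 CPM against 793 and 374 CPM. Of the 9 genes of the cohesin ring, its release and its loading, 0 passed (1 had an unadjusted p under 0.05), and the median was -0.17. None of the 3 condensin II subunits passed (2 had an unadjusted p under 0.05), with a median of 1.29. Cdca5, which encodes sororin, the protector of cohesin, rose from 6.77 and 5.71 CPM to 56.5 and 46.8 CPM. Of 11 other cytokinesis genes 0 passed (1 had an unadjusted p under 0.05), the median was -0.25, and the smallest p was that of Cit, the citron kinase, at 8.01 and 28.0 CPM against 79.2 and 104.8 CPM (adjusted p 0.068). The regulators of the late wave include Foxm1, at 13.4 and 16.8 CPM against 74.4 and 73.2 CPM, and Mybl2, which encodes B-Myb, at 14.5 and 15.8 CPM against 172 and 107 CPM. Both rose, as did E2f4 and Tfdp1, while the other 8 of the 12 in that list did not pass. The difference between these lists and the 48 genes was not tested.

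**Figure D5:**
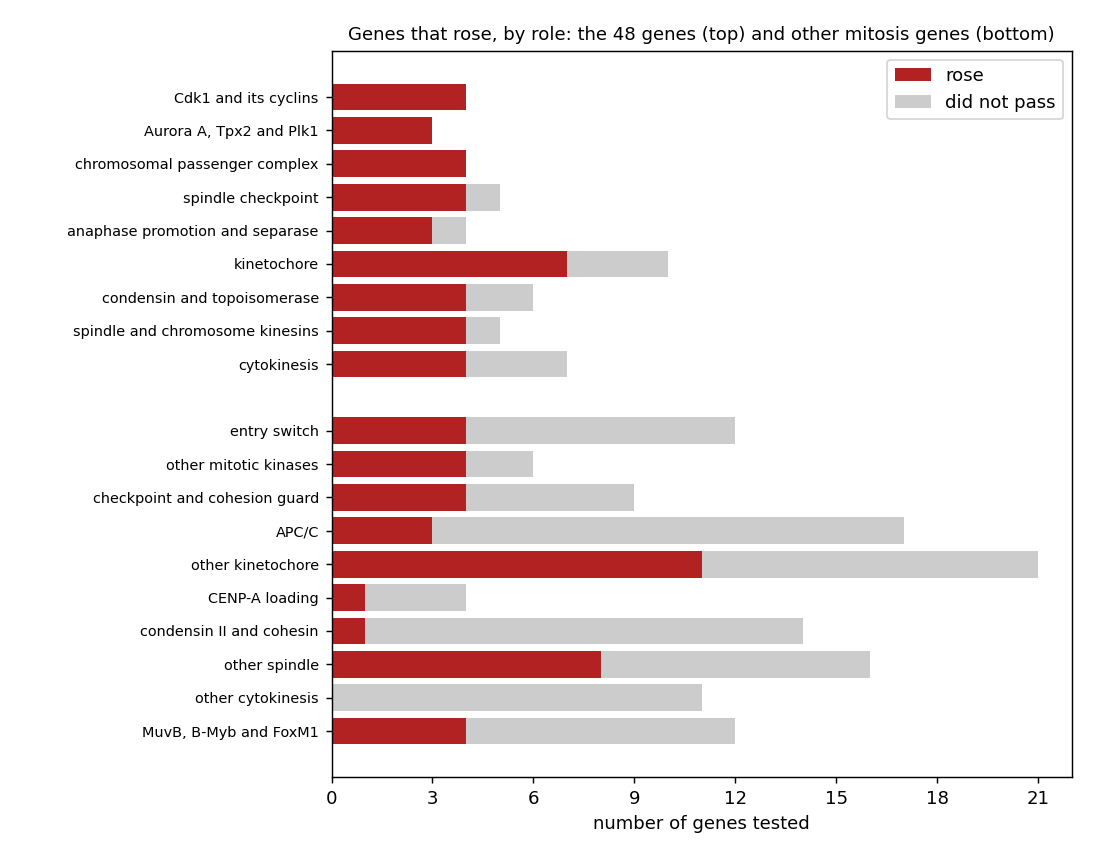
Number of genes that rose (red) or did not pass (grey) in each role, for the 48 genes above and the 122 other mitosis genes below. All genes of the first 3 roles rose, and 0 of 11 other cytokinesis genes did.

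Genes of the earlier cell cycle were counted for comparison. Of 39 DNA replication genes, 25 rose and 0 fell, against 5.90% higher and 0.392% lower over all genes, with a median log2 fold change of 1.99. Of 8 G1 cyclins and kinases, 3 rose: Ccnd3 (log2 2.36 ± 0.54), Ccne1 (3.03 ± 0.42) and Ccne2 (3.03 ± 0.53). The other 5 did not pass, and 3 genes of the list were below 0. These were Ccnd1 (log2 -1.76 ± 0.41, edgeR adjusted p 0.052), Ccnd2 (-1.39 ± 0.40, 0.082) and Cdk6 (-0.28 ± 0.54, 0.76). The D-type cyclins thus differed in direction.

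Markers listed for granulocyte and red cell precursors were higher in knockout, as most of the mitosis genes were. Between the wild-type libraries they did not move together. The summed level of the 48 genes was 810 CPM in wild-type library 1 and 1333 CPM in wild-type library 2, while both marker sums were higher in library 1. Over all genes, 5.90% passed as higher and 0.392% as lower, and counts of 0 or 1 in lists this short are near that background. An unadjusted p under 0.05 was found for 3752 of 13532 genes tested, both directions together. All 12 granulocyte precursor markers rose (median log2 6.29), and their summed level was 869 and 353 CPM in wild type and 27576 and 25572 CPM in knockout. Mpo, myeloperoxidase, had 14.9 and 6.51 CPM in wild type and 738 and 876 CPM in knockout. Of 12 red cell precursor markers 6 rose. All 12 were higher in both knockout libraries than in both wild-type libraries, against 30.3% of all genes tested. Their summed levels were 25878 and 11844 CPM in wild type and 176714 and 57427 CPM in knockout. The largest values in these sums were those of Hba-a1 and Hbb-bt, at 107266 and 54384 CPM in knockout library 1, and neither gene passed. Klf1, an erythroid transcription factor, had 16.6 and 31.6 CPM against 755 and 393 CPM. No marker of either list was at 0 in any library. Of 8 stem and progenitor markers tested, Cd34 rose, and the summed level of the list of 10 was 69.8 and 87.0 CPM against 79.3 and 127 CPM, with Mecom at 0 in both wild-type libraries. Germinal centres are among the places in the spleen where B cells divide. Of 8 germinal centre B cell markers 0 passed by edgeR (4 had an unadjusted p under 0.05), and their summed level was 136 and 102 CPM in wild type and 49.5 and 49.3 CPM in knockout. None of the B cell (8), T cell (8) or general white cell (4) markers passed by edgeR (4, 6 and 1 had an unadjusted p under 0.05). The 8 B cell markers summed to 6260 and 5459 CPM in wild type and 3309 and 2687 CPM in knockout, and the 8 T cell markers to 1149 and 707 CPM against 478 and 420 CPM. Of 8 plasma cell markers Irf4 fell and the others did not pass, with summed levels of 1395 and 425 CPM in wild type and 983 and 683 CPM in knockout. The part of these cell types in the rise of the mitosis genes was not tested.

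For 8 of the 48 genes an exon overlaps an exon of a gene on the opposite strand: Ccna2 with Exosc9, Cdc20 with Elovl1, Cenpk with Ppwd1, Kif20a with Cdc23, Kif4 with Pdzd11, Ncapg with Lcorl, Prc1 with Rccd1 and Ube2c with Tnnc2. The libraries were stranded, but no source used here gives the strand setting of the counting, so the share of their counts that belongs to the neighbour is uncertain.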

How the data were processed

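RNA of splenocytes was depleted of ribosomal RNA and sequenced as 75 bp single-end reads, per the labels' protocols. The authors deposited 1 table of counts per Ensembl gene. Per the submitters' processing notes, the build was GRCm38 and the tools included RSEM 1.2.25, STAR 2.5.0 and SAMtools 1.18; no source used here gives their roles or the annotation release. The deposited values were treated as estimated counts, as RSEM makes them. All were whole, so rounding changed none. The table had 25601 rows, of which 92 were spike-ins at 0 and 25509 were genes. By identifier, 25251 genes were found in GENCODE release M21.

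Groups and numbers came from sample titles. Knockout and wild type were compared with edgeR 4.0.16 (R 4.3.3): TMM, filterByExpr, robust quasi-likelihood F test, two-sided, Benjamini-Hochberg over 13532 genes, with 2 residual degrees of freedom. Levels are TMM-scaled CPM, and fold changes carry the SE. P-values measure only the spread between these libraries. Chi-square per degree of freedom between the libraries of a genotype was 476 in wild type and 345 in knockout, so none was a duplicate. The scripts were tested on simulated data.

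The 48 genes, the lists and the marker sets were chosen with earlier results of these data known. Named genes are the 48, Trim21, Mki67, Foxm1 and Mybl2, and of each other list the 2 with the smallest p or all genes where 5 or fewer were counted. Mpo, Klf1 and genes of the marker lists were named after their values were seen. Alternatives were DESeq2 1.42.0, limma-voom (limma 3.58.1), other scalings and filters, the replicate number as a block and each library left out. Removal of a loess trend (span 0.3) of log2 CPM on transcript length, or on length and GC content, was added after the data were seen, as were values within each library number. Where leaving out a library left 1 in a genotype, its spread was taken from the other genotype.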

Additional observations from a re-analysis of the deposited data

Results flagged for a closer look

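The differences of Cep55 and Smc4 had opposite signs in the libraries of male and of female pattern, although that of Cep55 between libraries 1 was close to 0. The log2 difference of Cep55, knockout over wild type, was -0.0079 between libraries 1, which had the male pattern, and 1.05 between libraries 2, which had the female pattern. That of Smc4 was 0.99 between libraries 1 and -0.40 between libraries 2. Each value compares 1 library with 1 library, and the difference between the library numbers was not tested. Cep55 was at 386 counts in the knockout library where it was higher.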

How the results depend on the processing

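The median log2 fold change of the 48 genes stayed between 2.21 and 2.85 in the other fits on all libraries, and between 2.46 and 3.26 with 1 library left out. The number that rose, 37, was 41 with DESeq2, against 11.2% of all genes higher in that fit. It was 39 with limma-voom (6.51% of all genes) and 39 with no low-count filter (7.36%). With DESeq2 size factors it was 35 (5.51%), and with library totals alone 36 (5.78%). In none of these fits did any of the 48 pass as lower. Of all genes, 0.273% passed as lower with DESeq2 size factors and 10.2% with library totals alone. Signs changed for Smc4 with library totals alone (-0.45), without wild-type library 1 (-0.53) and without knockout library 2 (-0.036), and for Cep55 without knockout library 2 (-0.0089). Leaving out 1 library at a time, Smc4 ranged from -0.53 to 1.12 and Cep55 from -0.0089 to 1.05.

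Counts over all genes and over the other mitosis genes moved more, and the cause was not tested. Genes higher in knockout, 798, became 1564 with DESeq2, 1278 with no low-count filter, 1385 with the length trend removed and 1725 with length and GC trends removed; leaving out 1 library at a time gave 601 to 2300. Genes lower in knockout, 53, became 908, 490, 865 and 1535 in the same order and 1376 with library totals alone, and ranged from 30 to 2047. Other mitosis genes that rose, 40, became 65 with DESeq2, 62 with the length trend removed and 71 with length and GC trends removed, and ranged from 36 to 70. Those lower, 0, became 1 with DESeq2, 1 with library totals alone and 1 with length and GC trends removed, and ranged from 0 to 6.

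Blocking on the replicate number, and so on the male or female pattern, gave 46 of the 48 genes as higher (median 2.82). Those gained were Anln, Bub3, Cenpe, Cenpf, Ect2, Kif11, Knl1, Pttg1 and Smc2, and Cep55 and Smc4 did not pass. Of the other mitosis genes, 82 then rose and 6 passed as lower. Over all genes, 3036 were then higher (22.4%) and 2669 lower (19.7%). With the block and the length trend removed, 44 of the 48 genes rose, and 75 others, with 3 lower. Over all genes 2189 were higher in that fit (16.2%) and 2361 lower (17.5%). Deviations of same-numbered libraries from their group means had a correlation of 0.51 across genes. Same-numbered libraries share the male or female pattern, and 2 pairs are too few to show any pairing beyond it. The labels tie the numbers to nothing shared, while Xist and the Y-linked genes tie them to the male and female patterns.

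With 2 libraries a genotype, a gene that did not pass is not shown to be equal between genotypes. Calls of single genes depend on which pair's spread is used. The lowest count of any of the 48 genes in any library was 73.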
